A study of Mus musculus with 24 samples.

Results

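A set of 10 genes of the acute phase response, the change in blood proteins that follows injury or infection, was followed across 7 groups of mouse lung samples. They were the 3 fibrinogen chain genes Fga, Fgb and Fgg, the lipocalin gene Lcn2, haptoglobin (Hp), the orosomucoids Orm1 and Orm2, the serpin gene Serpina3n, ceruloplasmin (Cp) and kininogen 1 (Kng1). They were taken as a list of names, 10 of the 20738 genes named on the array, chosen with earlier results of these data known. Where a gene had several spots, the one with the highest mean over all 24 samples stood for it. Only 8 of the 10 had a measurable signal, because Fga and Fgb stayed at background in nearly every sample.

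The samples were lungs of female C57BL/6 mice aged 7 to 8 weeks that received 10 µg a day of 1 of 6 carbon nanomaterials in 50 µl by oropharyngeal aspiration, in which liquid is placed in the throat and inhaled. Dosing was daily over 4 days, and the lungs were collected 24 h later. The groups were control mice given the saline PBS alone (Ctrl), the nanotubes rCNT, tCNT and BayTubes, the material labelled SES (the labels do not spell it out), Graphite and fullerene. Ctrl, rCNT, tCNT and SES had 3 samples each, and BayTubes, Graphite and fullerene had 4 each, every sample being a pool of 2 mice. Samples are named here by group and by the number their labels give, from 1 to 24.

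In the acute phase response, cytokines such as IL-6 and IL-1 act on hepatocytes, which then release large amounts of a set of plasma proteins. The proteins have varied tasks: fibrinogen forms clots, haptoglobin and ceruloplasmin bind haemoglobin and copper, lipocalin 2 binds the siderophores with which bacteria take up iron, and serpins block proteases. Although the liver is the main source, epithelium of the lung and other organs can transcribe several of these genes, and in a lung homogenate fewer cells of a type and less RNA per cell cannot be told apart.

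The values are log2 signals of array spots. A gene was tested if its spot lay above the 40th percentile of all spots, which was a log2 signal of 5.69 to 5.75 depending on the sample, in at least 3 samples, and 16519 genes passed. Differences are log2 differences from 1 limma fit with group, dye and array, given ± SE, and "rose" or "fell" is used for a Benjamini-Hochberg adjusted p under 0.05 over those genes. Because the fit adjusts for dye and array, its difference is not exactly that of the group means. The median SE of a gene's difference from Ctrl lay between 0.13 and 0.16 over the 6 materials. Over all genes, the samples with the widest residuals were rCNT 4 (SD 0.47), Graphite 13 (0.44) and Graphite 16 (0.39), against 0.15 to 0.35 in the other samples, and rCNT 4 and Graphite 16 shared an array. All 12 lung epithelium markers were above the percentile in every sample.

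The fibrinogen genes lie side by side on chromosome 3 in the order Fgg, Fga, Fgb, with 0 protein-coding genes between neighbours in the RefSeq table of GRCm38.p6. Only Fgg gave a signal in these lungs, so the windows around the start sites of all 3 are shown for comparison. RefSeq promoter windows of 300 bases (250 before the start to 50 after it) were at hand for 7 of the 10 genes, and Hp, Orm1 and Kng1 had none. Capitals mark matches, on either strand, to 4 motifs searched: CTGGGA, the hexamer of IL-6 response elements, TTCNNNGAA, the STAT palindrome, TTNNGNAAT, a C/EBP site, and the kappaB site.
Fgg, chr3:83007474-83007773, plus strand: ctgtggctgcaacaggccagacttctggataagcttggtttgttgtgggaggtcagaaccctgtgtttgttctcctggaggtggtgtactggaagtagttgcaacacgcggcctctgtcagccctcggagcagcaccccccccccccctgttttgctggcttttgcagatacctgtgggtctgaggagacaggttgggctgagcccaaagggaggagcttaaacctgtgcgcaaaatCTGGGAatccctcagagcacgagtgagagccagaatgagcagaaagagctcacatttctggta
Fga, chr3:83025903-83026202, plus strand: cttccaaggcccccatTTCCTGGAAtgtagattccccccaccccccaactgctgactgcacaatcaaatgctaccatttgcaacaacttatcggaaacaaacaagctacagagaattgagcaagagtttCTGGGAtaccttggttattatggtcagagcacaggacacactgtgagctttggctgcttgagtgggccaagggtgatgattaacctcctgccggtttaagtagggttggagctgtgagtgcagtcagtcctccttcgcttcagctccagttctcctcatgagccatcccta
Fgb, chr3:83049814-83050113, minus strand: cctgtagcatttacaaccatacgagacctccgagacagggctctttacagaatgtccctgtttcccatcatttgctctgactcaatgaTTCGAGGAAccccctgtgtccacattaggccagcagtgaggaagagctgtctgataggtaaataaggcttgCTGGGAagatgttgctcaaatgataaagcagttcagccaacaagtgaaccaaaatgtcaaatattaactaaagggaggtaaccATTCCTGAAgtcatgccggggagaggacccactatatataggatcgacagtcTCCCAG
The hexamer CTGGGA was in all 3 windows, at -13 in Fgg, -121 in Fga and -91 in Fgb relative to the start, and again at +44 on the other strand of Fgb. It is common, being in 31.8% of 32851 RefSeq promoter windows of the same length. TTCNNNGAA, in 8.3% of those windows, was at -234 in Fga and -162 in Fgb, the pair of genes without signal, and was not in the Fgg window. TTNNGNAAT, in 11.5% of windows, was at -8 in Fgb. None of these matches overlapped another. The Fga window was identical to the Fgg window over 47.9% and to the Fgb window over 48.7% of aligned columns.

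Fga encodes the alpha chain of fibrinogen, the clotting protein that thrombin turns into fibrin. Its representative spot read 5.26 to 5.61 over the 24 samples and was above the percentile in 0 of them, and its other spot was above it in 1 of 24, at 6.26 in Graphite 13. Fgb, the beta chain, was above it in 2 of 24 samples, at 6.25 in SES 12 and 5.91 in BayTubes 19. After rCNT the mean signal was 5.43 ± 0.12 (SD, n = 3) for Fga and 5.41 ± 0.11 for Fgb, against 5.43 ± 0.10 and 5.38 ± 0.17 (SD, n = 3) in Ctrl. Neither gene entered the test. In a fit without the filter their differences between rCNT and Ctrl were -0.07 ± 0.10 (adjusted p = 0.703) for Fga and -0.02 ± 0.19 (adjusted p = 0.956) for Fgb (limma). A signal at background gives no measured level, so a change of these genes below the array's range could not be seen.

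Fgg encodes the gamma chain, which carries binding sites for platelet and leukocyte integrins. Its log2 signal was 6.48, 6.54 and 7.11 in Ctrl and 7.72, 8.61 and 8.07 in rCNT, so that the lowest rCNT sample lay above the highest Ctrl sample. It was 7.43, 7.86 and 7.90 in tCNT, 7.38, 7.00 and 7.42 in SES and 7.16, 7.31, 7.27 and 7.63 in BayTubes. Graphite read 7.38, 7.41, 6.97 and 6.76, and fullerene read 6.88, 7.58, 7.16 and 7.28. The tCNT and BayTubes samples were all above Ctrl, and Ctrl 3, at 7.11, overlapped with SES, Graphite and fullerene. Fgg rose by 1.64 ± 0.22 after rCNT, or 3.11-fold (adjusted p = 3.34e-05, limma), by 1.19 ± 0.22 after tCNT (adjusted p = 0.0176) and by 0.70 ± 0.18 after BayTubes (adjusted p = 0.0379).

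Lcn2 encodes lipocalin 2, which is stored in neutrophil granules and is also secreted by airway epithelium. It read 13.40, 13.71 and 13.41 in Ctrl and 16.13, 16.37 and 15.94 in rCNT. BayTubes samples read 14.84, 14.63, 14.85 and 15.03, tCNT samples 14.68, 14.25 and 14.28, and SES samples 14.25, 14.00 and 14.32. All of these lay above the highest Ctrl sample, and none reached the lowest rCNT sample. Graphite, with 13.70, 14.20, 14.13 and 15.08, and fullerene, with 14.90, 13.96, 13.44 and 13.27, overlapped with Ctrl. Lcn2 rose 4.89-fold after rCNT (2.29 ± 0.30, adjusted p = 2.7e-05, limma) and 2.31-fold after BayTubes (1.21 ± 0.25, adjusted p = 0.00814). The difference from Ctrl was 0.88 ± 0.30 for tCNT (adjusted p = 0.272), 0.70 ± 0.27 for Graphite (adjusted p = 0.152) and 0.27 ± 0.28 for fullerene (adjusted p = 0.721).

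Hp encodes haptoglobin, the plasma protein that captures free haemoglobin. It was bright in all samples, with 16.06, 15.86 and 15.73 in Ctrl and 16.46, 16.90 and 16.28 in rCNT. The groups did not overlap, but the step was small, 0.63 ± 0.17 or 1.54-fold (adjusted p = 0.0113, limma), the smallest among the 8 genes tested. The 3 tCNT samples, at 16.14, 16.42 and 16.30, also lay above Ctrl, with a difference of 0.45 ± 0.17 (adjusted p = 0.346). The range was 15.95 to 16.10 in SES, 16.06 to 16.47 in BayTubes, 15.44 to 16.12 in Graphite and 15.64 to 15.94 in fullerene. The call of Hp after rCNT was lost without Ctrl 3 (0.52, adjusted p = 0.0506) and without rCNT 5 (0.45, adjusted p = 0.0937). No saturation flags were used here, so whether this spot was in the linear range of the scanner was not tested. The same limit holds for Lcn2, which read 15.94 to 16.37 in rCNT.

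Orm1 and Orm2 encode orosomucoids (alpha-1-acid glycoproteins), carriers of basic and lipophilic compounds in plasma. Orm1 read 5.69, 5.64 and 5.76 in Ctrl, at the percentile that marks background, and 8.62, 7.88 and 7.95 in rCNT. Orm2 read 5.79, 5.44 and 5.56 in Ctrl and 9.16, 8.28 and 8.51 in rCNT. In both genes the rCNT samples stood more than 1 log2 unit above all other 21 samples. The highest values of those were 6.63 for Orm1 and 7.18 for Orm2, both in fullerene 21, which shared an array with rCNT 5. Orm1 rose by 2.37 ± 0.25 (adjusted p = 2.32e-06, limma) and Orm2 by 2.63 ± 0.41 (adjusted p = 0.000126) after rCNT. With Ctrl at background, the size of these differences is less certain than their direction. No other material passed for either gene, with differences from 0.20 to 0.61 for Orm1 and from 0.28 to 0.74 for Orm2. Within these groups Orm2 was widely spread, from 5.71 to 6.97 in BayTubes, 5.44 to 6.71 in Graphite and 5.66 to 7.18 in fullerene.

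Another orosomucoid gene, Orm3, lies between Orm1 and Orm2 on chromosome 4 and did not move. It read 6.78, 6.23 and 6.42 in Ctrl and 6.46, 6.35 and 6.27 in rCNT, a difference of -0.04 ± 0.15 (adjusted p = 0.889, limma). The windows of Orm2 and Orm3 are shown because they are alike in sequence while the genes differed in response. They were identical over 86.6% of aligned columns.
Orm2, chr4:63362199-63362498, plus strand: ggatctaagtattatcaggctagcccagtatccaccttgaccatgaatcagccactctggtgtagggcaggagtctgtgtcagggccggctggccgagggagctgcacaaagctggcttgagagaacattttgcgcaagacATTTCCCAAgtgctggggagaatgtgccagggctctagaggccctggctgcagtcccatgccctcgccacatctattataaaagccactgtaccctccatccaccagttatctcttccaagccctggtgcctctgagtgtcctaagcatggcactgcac
Orm3, chr4:63355908-63356207, plus strand: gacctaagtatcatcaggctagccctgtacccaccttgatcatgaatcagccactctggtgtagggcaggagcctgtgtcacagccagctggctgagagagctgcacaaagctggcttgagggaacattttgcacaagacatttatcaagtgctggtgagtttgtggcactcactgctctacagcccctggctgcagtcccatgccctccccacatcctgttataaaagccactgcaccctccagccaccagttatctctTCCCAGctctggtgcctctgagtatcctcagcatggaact
The Orm2 window held TTNNGNAAT at -109, where the Orm3 window had no match, and the Orm3 window held CTGGGA on the other strand at +10. A match is a description of letters and not a site of binding. Transcripts of the family are much alike too, so a spot may read more than 1 of these genes. In the other windows, Serpina3n held TTNNGNAAT at -228 and -57 and a kappaB site, in 1.63% of all windows, at -171, 1 of the 2 Cp windows held CTGGGA at -124 and the other none of the motifs, and Lcn2 held none of the motifs.

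**Figure D1:**
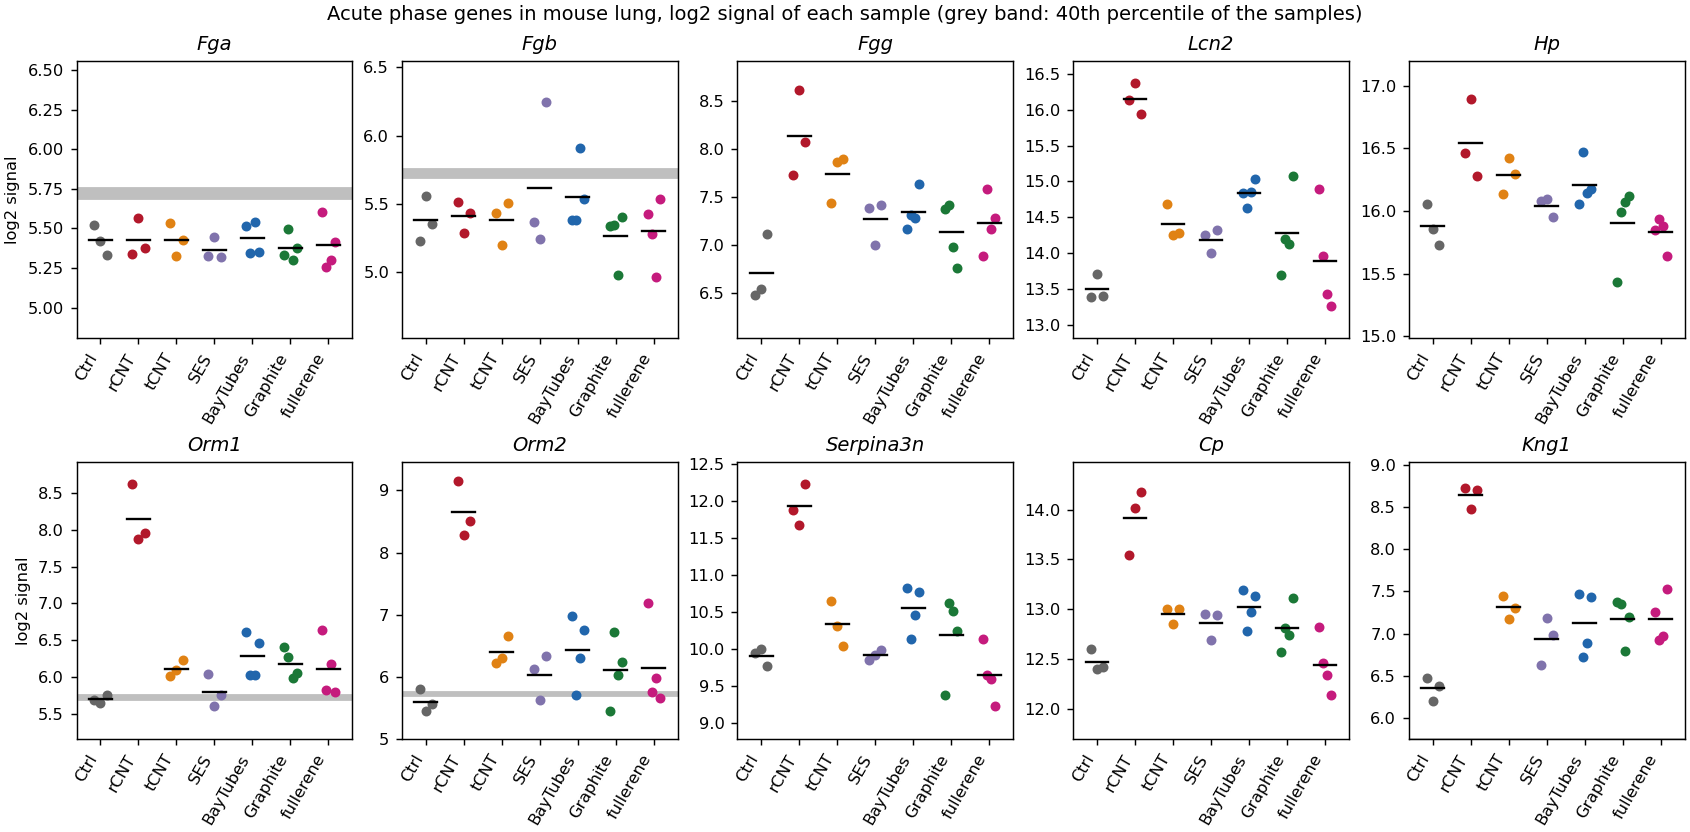
Log2 signal (y axis) of the representative spot of each of the 10 genes in every sample, by group (x axis). Points are pools of 2 mice, bars are group means and the grey band is the 40th percentile of the samples. Fga and Fgb lie under the band in nearly all samples. The rCNT samples are the highest of all 24 for Lcn2, Orm1, Orm2, Serpina3n, Cp and Kng1.

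Serpina3n encodes a secreted protease inhibitor of the alpha-1-antichymotrypsin clade. It read 9.94, 10.00 and 9.77 in Ctrl and 11.88, 11.68 and 12.23 in rCNT. All 3 rCNT samples exceeded every other sample, of which the highest was BayTubes 17 at 10.83. Serpina3n rose 3.27-fold after rCNT (1.71 ± 0.26, adjusted p = 0.000124, limma). BayTubes samples, at 10.83, 10.14, 10.45 and 10.77, were all above Ctrl, with a difference of 0.49 ± 0.22 (adjusted p = 0.302). The SES samples, at 9.84, 9.92 and 9.98, lay within the range of Ctrl, and 3 of the 4 fullerene samples lay below it. Neighbouring genes of the same serpin cluster also rose after rCNT, Serpina3g by 2.37 ± 0.34 (adjusted p = 5.39e-05), Serpina3f by 2.29 ± 0.40 (adjusted p = 0.000373) and Serpina3i by 1.38 ± 0.30 (adjusted p = 0.00269). These genes are near copies, and their spots may read each other.

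Cp encodes ceruloplasmin, the copper-carrying ferroxidase of plasma. Its brighter spot read 12.60, 12.40 and 12.42 in Ctrl and 13.54, 14.02 and 14.18 in rCNT, with no overlap between rCNT and the other 21 samples. It rose 2.45-fold (1.29 ± 0.19, adjusted p = 6.16e-05, limma). All samples of tCNT (12.85 to 13.00), SES (12.69 to 12.95) and BayTubes (12.78 to 13.19) were above the highest Ctrl sample. Their differences were 0.47 ± 0.18 (adjusted p = 0.381), 0.36 ± 0.18 (adjusted p = 0.976) and 0.51 ± 0.15 (adjusted p = 0.0809). A dimmer spot carrying the same gene name did not follow. It read 8.31 to 8.61 in Ctrl and 8.01 to 8.75 in rCNT, and its difference was -0.07 (adjusted p = 0.795, limma). The result for Cp therefore belongs to 1 of 2 spots, and which transcripts each spot reads was not tested.

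Kng1 encodes kininogen, the precursor that kallikreins cleave to release bradykinin. Its brighter spot read 6.48, 6.20 and 6.38 in Ctrl and 8.73, 8.48 and 8.70 in rCNT. It was also above Ctrl in every sample of every other material, and that held for none of the other 7 genes tested. The values were 7.45, 7.18 and 7.31 in tCNT, 6.63, 7.18 and 6.99 in SES, 7.47, 6.72, 6.89 and 7.43 in BayTubes, 7.38, 7.35, 6.80 and 7.19 in Graphite and 7.26, 6.92, 6.97 and 7.53 in fullerene. Kng1 rose 4.78-fold after rCNT (2.26 ± 0.19, adjusted p = 2.43e-07, limma). It rose by 0.90 ± 0.18 after fullerene (adjusted p = 0.0315), 0.85 ± 0.19 after tCNT (adjusted p = 0.0392), 0.83 ± 0.17 after Graphite (adjusted p = 0.0228) and 0.77 ± 0.16 after BayTubes (adjusted p = 0.00701). For SES it was 0.67 ± 0.19 (adjusted p = 0.471). The other Kng1 spot was above the percentile in 0 of 24 samples, and the neighbouring gene Kng2 read 5.15, 6.98 and 5.68 in rCNT, a difference from Ctrl of 0.44 ± 0.29 (adjusted p = 0.303).

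**Figure D2:**
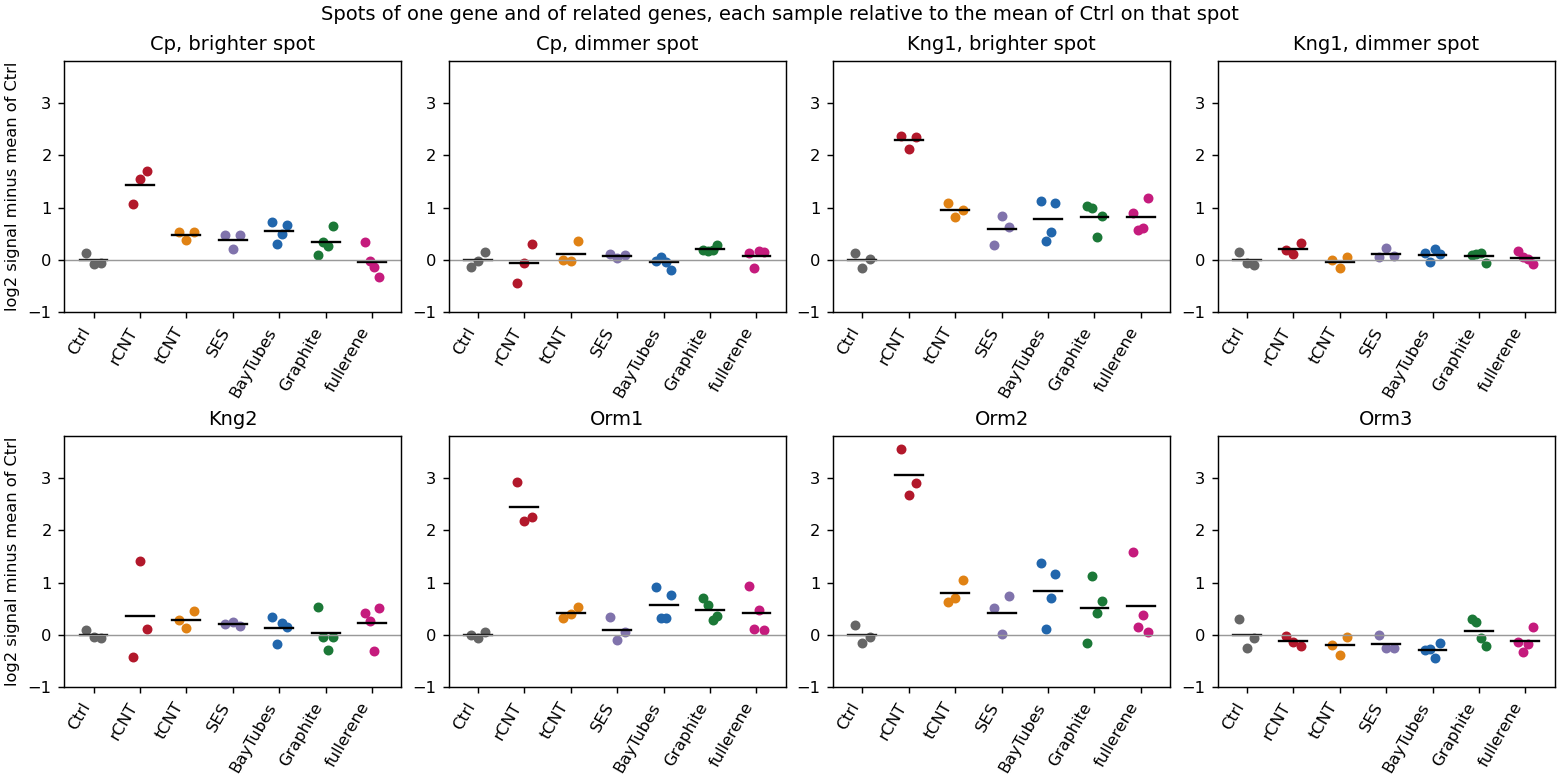
Log2 signal of each sample minus the mean of Ctrl on the same spot (y axis), by group (x axis), for both spots of Cp and Kng1, for Kng2 and for the 3 orosomucoid genes. Points are samples and bars are group means. The brighter spots of Cp and Kng1, Orm1 and Orm2 are raised in rCNT, while the dimmer spots and Orm3 stay near 0.

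All 8 genes tested rose after rCNT compared with Ctrl, where 12.4% of the 16519 genes tested rose. As the list was chosen with earlier results of these data known, this contrast is a description and no independent support. The same holds for the contrasts and the F test below. In all 8 genes the rCNT and Ctrl samples did not overlap, which held upward for 18.9% of genes. The median difference of the 8 was 1.98, against a median near 0 over all genes (-0.02). With array as a fixed term the calls of Orm2, Serpina3n, Cp and Hp were lost (adjusted p = 0.0744 to 0.45). No array held both rCNT and Ctrl, so that fit compares them through other groups. The other 7 calls held whichever rCNT or Ctrl sample was left out, Hp being the exception given above. Within slide 1, which held 1 rCNT and 1 Ctrl sample, rCNT 4 was higher than Ctrl 2 in the fitted value of all 8 genes, and within slide 2, which held 1 rCNT and 2 Ctrl samples, rCNT 6 was higher in all 8. These values have no spread of their own for rCNT.

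After BayTubes 3 of 8 genes rose, Fgg, Lcn2 and Kng1, against 2.16% of all genes. All 8 differences were above 0, with a median of 0.66, and in 6 genes the samples did not overlap with Ctrl, as in 6.54% of all genes upward. The count depended on the samples, being 0 without Ctrl 2, Ctrl 3 or BayTubes 20, 6 without Graphite 13, which belongs to neither group, and 8 in a fit of BayTubes and Ctrl alone, which called 2413 genes in all against 526. Adjusted p of the 3 genes lay between 0.0519 and 0.212 where any of those 3 samples was left out, and Fgg alone was lost without Ctrl 1, BayTubes 17 or BayTubes 18 (adjusted p = 0.0593 to 0.137).

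After tCNT 2 of 8 genes rose, Fgg and Kng1, where 0.684% of all genes rose. All 8 genes nevertheless lay above Ctrl in each of the 3 tCNT samples, as 8.94% of all genes did, with a median difference of 0.59. Both calls were lost without tCNT 8, tCNT 9, Ctrl 1 or Ctrl 2, with adjusted p of 0.07 to 0.335, and that of Kng1 was lost without Ctrl 3 (adjusted p = 0.14) or tCNT 7 (adjusted p = 0.0593).

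After Graphite and after fullerene 1 of 8 genes rose, Kng1, where 0.545% and 0.151% of all genes rose. The samples lay above Ctrl without overlap in 2 of 8 genes for each, against 9.41% and 11.2% of all genes. Those were Orm1 and Kng1 in both. The Kng1 call after Graphite was lost without any 1 Ctrl sample (adjusted p = 0.0633 to 0.169) and without Graphite 13 (adjusted p = 0.132). After fullerene it was lost without any 1 Ctrl sample or without fullerene 21, 23 or 24 (adjusted p = 0.0753 to 0.228).

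After SES limma called 0 of 8 genes and 0% of all genes, with 3 of the 8 (Fgg, Lcn2 and Kng1) and 747 genes in all at an unadjusted p under 0.05. Lcn2, Cp and Kng1 lay above Ctrl without overlap, as 7.25% of all genes did. The median difference was 0.37. The 6 comparisons share the same 3 Ctrl samples, so their differences are not independent of each other.

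**Figure D3:**
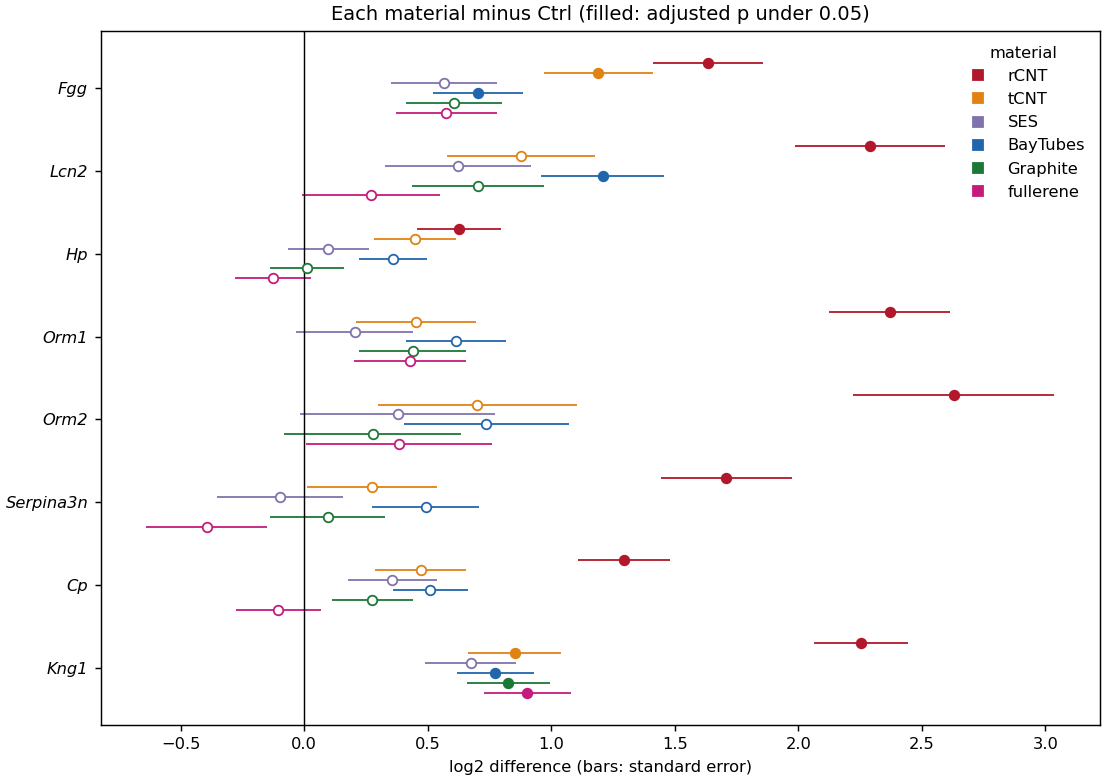
Log2 difference of each material from Ctrl (x axis, bars are SE) for the 8 genes tested (y axis). Filled points have an adjusted p under 0.05 and open points do not. The rCNT points lie furthest right for every gene, from 0.63 for Hp to 2.63 for Orm2, and Kng1 has filled points for 5 of the 6 materials.

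Direct contrasts in the same fit set rCNT against each other material. The genes had been chosen with earlier results of these data known, so these counts, too, are a description and no independent support. Against tCNT 6 of 8 genes were higher after rCNT, where 5.71% of all genes were, and the differences were 1.93 ± 0.40 for Orm2, 1.92 ± 0.24 for Orm1, 1.44 ± 0.26 for Serpina3n, 1.41 ± 0.30 for Lcn2, 1.40 ± 0.19 for Kng1 and 0.82 ± 0.18 for Cp (adjusted p from 7.26e-05 to 0.0084, limma). The 2 genes that did not pass were Fgg, with a difference of 0.45 (95% confidence interval -0.01 to 0.90, adjusted p = 0.22), and Hp, with 0.18 (-0.17 to 0.52, adjusted p = 0.56). For these 2 genes the rCNT and tCNT samples overlapped. Without tCNT 7 the calls of Orm2 (adjusted p = 0.0516) and Cp (adjusted p = 0.0527) were lost. With array as a fixed term only that of Kng1 was left (1.49 ± 0.19, adjusted p = 0.0396), and the other 5 had an adjusted p of 0.245 to 0.588.

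Against BayTubes 7 of 8 genes were higher after rCNT, where 8% of all genes were. The exception was Hp, with a difference of 0.27 (-0.06 to 0.60, adjusted p = 0.285, limma). The largest was that of Orm2, 1.89 ± 0.38 (adjusted p = 0.0028), and the Fgg difference was 0.93 ± 0.21 (adjusted p = 0.00582). Lcn2, which had risen after both materials, was 2.12-fold higher after rCNT (1.08 ± 0.28, adjusted p = 0.0159). That call was lost without rCNT 5 (adjusted p = 0.0593) or BayTubes 19 (adjusted p = 0.0605), and that of Fgg without rCNT 5 (adjusted p = 0.0633). With array as a fixed term the calls of Fgg (adjusted p = 0.0487) and Kng1 (adjusted p = 0.037) were left.

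All 8 genes were higher after rCNT than after SES, Graphite and fullerene, as were 10%, 12.8% and 12% of all genes. Against fullerene the differences ran from 0.75 ± 0.15 for Hp to 2.24 ± 0.35 for Orm2, and that of Lcn2 was 2.02 ± 0.26 (adjusted p = 2.08e-05, limma). Serpina3n was 4.3-fold higher after rCNT than after fullerene and 3.06-fold higher than after Graphite. Hp against SES was 0.53 ± 0.17 (adjusted p = 0.0353) and lost its call without any 1 SES sample, rCNT 4 or rCNT 5 (0.34 to 0.65, adjusted p = 0.0517 to 0.225). With array as a fixed term, the calls of Fgg (adjusted p = 0.0334) and Kng1 (adjusted p = 0.0209) were left against SES, and all 8 were left against Graphite and against fullerene, the groups that shared arrays with rCNT. The F test among the 6 materials, which does not use Ctrl, called 8 of 8 genes, against 16.5% of all genes.

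**Figure D4:**
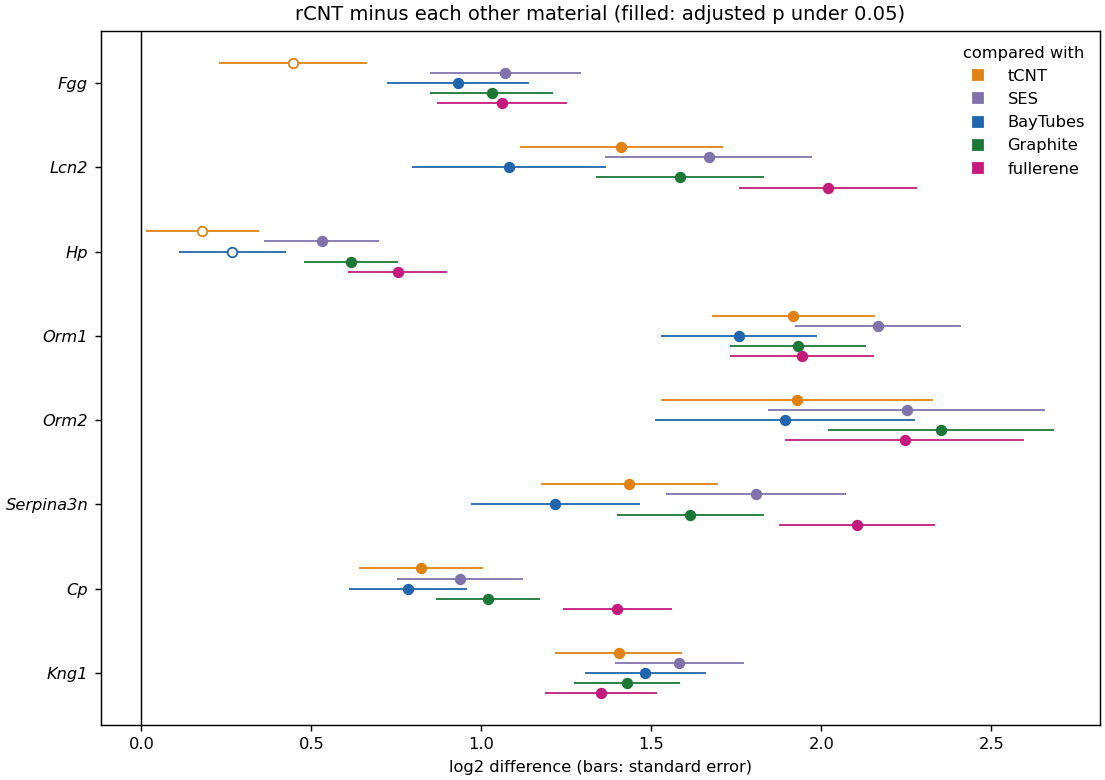
Log2 difference between rCNT and each other material (x axis, bars are SE) for the 8 genes tested (y axis). Filled points have an adjusted p under 0.05. All points lie right of 0, and the open points are Fgg against tCNT and Hp against tCNT and BayTubes.

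In the order of group means, rCNT was first for all 8 genes. The next was tCNT for Fgg, Hp and Kng1, and BayTubes for Lcn2, Orm1, Orm2, Serpina3n and Cp. The lowest mean was that of Ctrl for 5 genes and that of fullerene for Hp, Serpina3n and Cp. Among the groups below rCNT, samples of neighbours in the order overlapped for every gene except Kng1, where SES and Ctrl did not overlap. In 6 genes (Lcn2, Orm1, Orm2, Serpina3n, Cp and Kng1) each rCNT sample lay above all other 21 samples, as for 5.42% of all genes tested.

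The genes varied differently within groups. Fullerene 21 was the highest of its group in 5 of the 8 genes, namely Lcn2, Orm1, Orm2, Serpina3n and Cp. Fullerene 24 was the lowest in 6. Fullerene 21 shared its array with rCNT 5, as Graphite 16 did with rCNT 4 and Graphite 14 with rCNT 6. Graphite 14 and Graphite 16 were each the highest of their group in 3 of the 8 genes, and Graphite 13 in 2. In these samples a difference between mice and an effect of the shared array cannot be told apart. Over all 24 samples the 28 pairs of genes had a Pearson r between 0.47 and 0.94, with a median of 0.76. After the group means were removed it lay between -0.53 and 0.72, with a median of 0.16. The first range contains the difference between groups, and samples of an array share a hybridisation.

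Genes that resembled each member over the 24 samples were looked up among all genes tested. Lcn2 was most like Saa3 (Pearson r = 0.94), Chil1 (0.93) and Cd14 (0.93), and Cp was most like Ch25h (0.95), Muc4 (0.93) and Chil1 (0.93). Serpina3n was nearest to Ch25h (0.94), Mthfd2 (0.94) and Timp1 (0.93), and Hp to Tspan1 (0.89), Muc20 (0.88) and Pcx (0.85). Orm1 was nearest to Tgm1 (0.97), Ccdc167 (0.97) and Retnlb (0.96), Orm2 to Fcrls (0.97), Aunip (0.96) and Cited1 (0.95), Kng1 to Mxd3 (0.92), AA467197 (0.91) and Cfi (0.91), and Fgg to Sp5 (0.86), D730003K21Rik (0.84) and Cenph (0.83). The step between rCNT and the other groups is part of each of these values.

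Of a list of 26 other acute phase genes, 21 were tested, 14 rose and 0 fell after rCNT, with a median difference of 1.36. After rCNT 12.4% of all genes rose. Among the 21, Saa4 was above the percentile in 4 of 24 samples, and all 3 rCNT samples were among them. Saa4 thus entered the test only through rCNT. Saa1 and Saa2, which encode the serum amyloids A, rose by 4.37 ± 0.40 (adjusted p = 5.76e-07) and 2.31 ± 0.22 (adjusted p = 1.11e-06, limma), the latter from a Ctrl mean of 5.49, which is at background. Cd14, the co-receptor for endotoxin, rose by 2.00 ± 0.17 after rCNT (adjusted p = 2.33e-07), by 0.97 ± 0.14 after BayTubes (adjusted p = 0.000448) and by 0.76 ± 0.17 after tCNT (adjusted p = 0.0357). The count was 3 of 21 after BayTubes (Saa1, Saa3 and Cd14), 1 after tCNT, 1 after Graphite (Saa3) and 0 after SES and fullerene. Of all genes 2.16% rose after BayTubes, 0.684% after tCNT and 0.545% after Graphite. Saa3 was named after its values were seen.

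Of 24 tested genes for inducing cytokines and IL-6 type signalling, 9 rose and 2 fell after rCNT, with a median of 0.40. Over all genes 12.4% rose. The share of all genes that fell after a material is not given here. Counts of genes that fell, in this and the other lists, therefore cannot be set against it. Il6 had a mean signal of 5.53 in Ctrl, at background, and 8.63 after rCNT, and rose by 3.08 ± 0.24 (adjusted p = 9.24e-08, limma). Socs1 and Socs3, feedback inhibitors that cytokine receptors induce, rose by 1.64 ± 0.19 (adjusted p = 9.14e-06) and 1.41 ± 0.22 (adjusted p = 0.000138). The 2 that fell were the receptor genes Il6ra (-0.72 ± 0.21, adjusted p = 0.0179) and Lifr (-0.64 ± 0.15, adjusted p = 0.00474), named after their values were seen. After BayTubes Il6 was 0.70 ± 0.20 above Ctrl (adjusted p = 0.0556), and 0 of the 24 passed. In the same list 0 passed after tCNT, SES and fullerene, and 1, Cebpd, fell after Graphite (-1.01 ± 0.20, adjusted p = 0.0228), named for the same reason.

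Among 5 tested liver transcription factors, Hnf4a rose after rCNT by 0.94 ± 0.13 (adjusted p = 3.6e-05, limma) from 5.37 in Ctrl, which is at background. It was above the percentile in 5 of 24 samples, and all 3 rCNT samples were among them. Hnf4a thus entered the test only through rCNT, the group where it was high, and its p is no independent support. Cebpa fell by 0.30 on the log2 scale (SE 0.10, adjusted p = 0.0348), and Foxa2 differed by 0.35 ± 0.14 (adjusted p = 0.0785). Of 15 genes for iron and heme handling, 6 rose and 1 fell after rCNT, with a median of 0.06, where 12.4% of all genes rose. Ltf, the iron-binding lactoferrin, rose by 3.73 ± 0.58 after rCNT (adjusted p = 0.000127), 2.62 ± 0.57 after tCNT (adjusted p = 0.0372) and 1.95 ± 0.48 after BayTubes (adjusted p = 0.0258). The metal transporter Slc39a14 rose by 1.53 ± 0.18 (adjusted p = 8.15e-06) and the ferrireductase Steap4 by 1.51 ± 0.34 (adjusted p = 0.00351) after rCNT. The gene that fell was Slc22a17, a receptor for lipocalin 2 (-0.35 ± 0.12, adjusted p = 0.0469), named after its values were seen.

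Coagulation and fibrinolysis genes act on or with fibrinogen and kininogen. Of 23 such genes 3 rose and 1 fell after rCNT, with a median of 0.08, and 12.4% of all genes rose. Procr, the endothelial protein C receptor, rose by 0.85 ± 0.15 (adjusted p = 0.00043) and F7 by 0.98 ± 0.20 (adjusted p = 0.00124, limma). Thbd, thrombomodulin, fell by 1.05 on the log2 scale (SE 0.19, adjusted p = 0.000519). The other gene that rose was Plaur (0.53 ± 0.17, adjusted p = 0.0288), named after its values were seen. F3, tissue factor, rose by 1.06 ± 0.27 after BayTubes (adjusted p = 0.034). Of 8 fibrinogen receptor genes 0 rose and 1, Itgam, fell after rCNT (-0.70 ± 0.16, adjusted p = 0.00298), while Itgb2 differed by 1.41 ± 0.59 (adjusted p = 0.0921). Of 11 kallikrein and kinin genes only Bdkrb1, the inducible kinin receptor, passed, rising by 1.25 ± 0.13 (adjusted p = 3.15e-06).

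**Figure D5:**
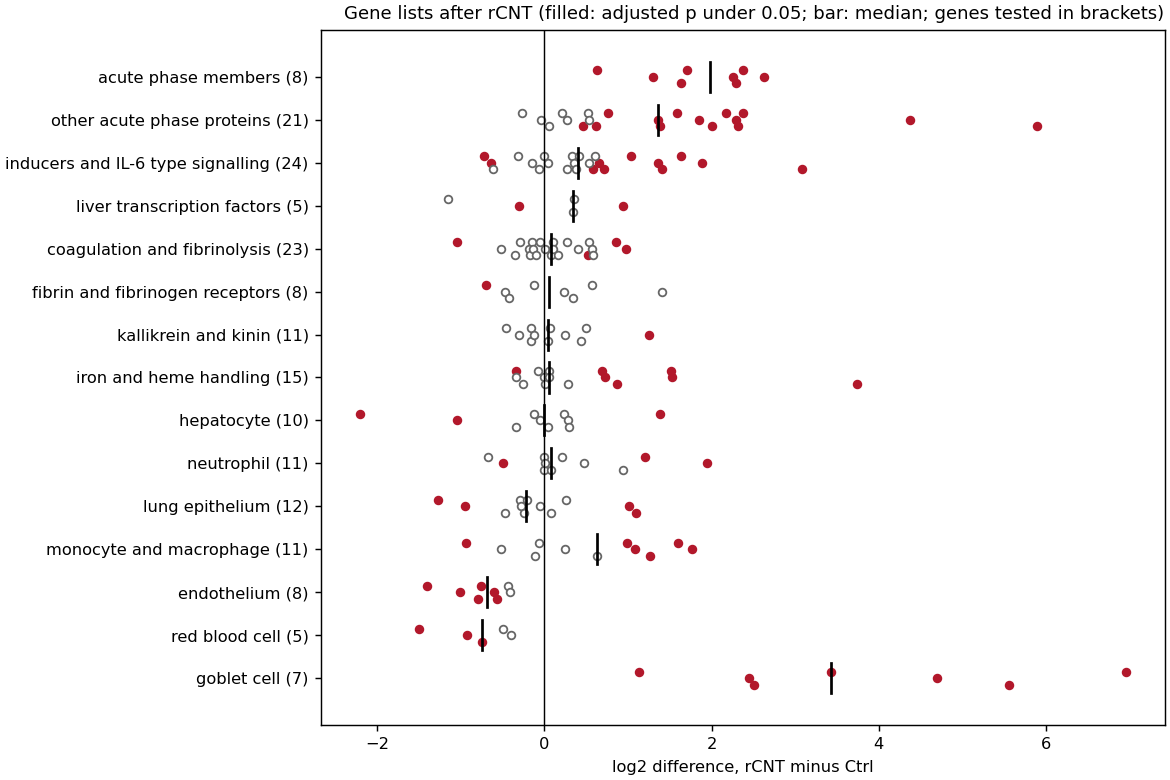
Log2 difference between rCNT and Ctrl (x axis) of each tested gene of the 8 acute phase members, 7 pathway lists and 7 cell marker lists (y axis, number of genes tested in brackets). Filled points have an adjusted p under 0.05 and black bars are medians. The members and the other acute phase genes have medians of 1.98 and 1.36, and the goblet cell markers, with 3.43, lie further right.

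Markers of other cell types were read beside these results, where 12.4% of all genes rose after rCNT. The share of all genes that fell is not given here, so counts of markers that fell cannot be set against it. Of 16 hepatocyte markers 15 had a spot and 10 were tested, of which 1 rose (Ahsg, 1.38 ± 0.23) and 2 fell (Fabp1, -2.21 ± 0.27, and Cyp2e1, -1.04 ± 0.18) after rCNT. The mean log2 signal of the list was 6.74 to 6.80 in Ctrl and 6.63 to 6.79 in rCNT samples. Alb read 5.65 in rCNT and 5.92 in Ctrl, and Apoh, Ttr and Cps1 were above the percentile in 0 samples. Other genes of the list were well above it, among them Apoa2, with means of 11.36 in rCNT and 11.01 in Ctrl, and Ahsg, Fabp1 and Cyp2e1, with means of 8.42 to 8.44 in rCNT. Apoa2 was widely spread, from 10.24 to 13.29 in rCNT samples, against 10.62 to 11.46 in Ctrl. The part of hepatocyte RNA in the results was not tested.

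Of 11 neutrophil markers 2 rose (Retnlg by 1.94 ± 0.38 and Mmp8 by 1.20 ± 0.37) and 1 fell (Csf3r, -0.50 ± 0.14) after rCNT. S100a8 differed by 0.47 ± 0.52 and S100a9 by -0.67 ± 0.82, and neither passed (adjusted p = 0.561 and 0.605, limma). The list mean was 8.97 to 9.28 in Ctrl, 9.54 to 9.71 in rCNT, 9.05 to 9.56 in tCNT, 9.11 to 9.36 in SES, 9.13 to 9.61 in BayTubes, 8.88 to 10.8 in Graphite and 9.08 to 9.48 in fullerene. In Graphite 15, which had the list mean of 10.8, Lcn2 was 14.13, within the range of the other Graphite samples.

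Of 7 goblet cell markers all 7 rose after rCNT, 5 after tCNT and 2 after BayTubes, against 12.4%, 0.684% and 2.16% of all genes. The list mean was 8.08 to 8.25 in Ctrl, 11.1 to 12.6 in rCNT and 10.3 to 10.9 in tCNT. After rCNT 5 of 11 monocyte and macrophage markers rose and 1 fell, 6 of 8 endothelial and 3 of 5 red blood cell markers fell, and 2 of 12 lung epithelium markers rose (Foxj1 and Sftpd) and 2 fell (Cyp2f2 and Ager). For hepatocyte, neutrophil and lung epithelium markers the counts that rose were not far from the 12.4% of all genes. What part these cell types had in the rise of the acute phase genes was not tested.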

How the data were processed

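Lung RNA of 24 pools of 2 mice was read on 12 two-colour Agilent arrays on 3 slides, each dye holding its own sample. The authors deposited log2 signals, 1 per spot and sample. The submitters' processing notes name Agilent Feature Extraction and limma without versions or settings, and the sorted values nearly coincided between samples, as after quantile normalization. Spots have no read depth: the number of samples limits precision. The p-values set a difference against a spread between pools that was estimated for each gene over all 7 groups.

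Of 62976 spots 31465 carried a gene in the platform table, and current names came from a RefSeq table of GRCm38.p6 by accession (29036 spots), symbol (2075) or synonym (349), with 5 kept. A gene was its brightest spot on average and entered if at least 3 samples had that spot above their 40th percentile. limma 3.58.1 in R 4.3.3 (statmod 1.5.0) was fitted to all 24 samples with group and dye as terms and array as a random block (correlation 0.399), 16 residual and 3.54 prior degrees of freedom. Tests were 2-sided, with Benjamini-Hochberg adjustment over 16519 genes. Tested on simulated data for rCNT against Ctrl, the fit found 29.9% of genes set to change 1.5-fold, 74.6% of those at 2-fold and 97% of those at 4-fold. Of its calls 2.19% were false, and it made 0 calls for SES without a change. The simulated data had 66 or 67 changed genes for each fold, only in rCNT, and normal noise with the same spread in all samples. In the measured data 12.4% of genes rose after rCNT and samples differed in spread, so these rates need not hold there. Named genes were the members, their near copies, the cell markers, the 3 genes of each pathway list with the smallest p after rCNT and the 1 after BayTubes, and the 3 genes most like each member by Pearson r. The members and lists were chosen with earlier results of these data known. Alternatives changed the dye, array and slide terms, the filter, the normalization, the spot, the variance prior, the threshold and the samples in the fit. Spots without a gene name and scanner files were not used here.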

Additional observations from a re-analysis of the deposited data

Results flagged for a closer look

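In the groups of 4 samples, 4 of 39 pairs of spot and group held 1 sample far from the other 3. Chance sets such a flag in about 1 of 20 pairs, and all 4 lie on spots that represent no tested gene. The other spot of Fga read 6.26 in Graphite 13, against 5.25 to 5.32 in the other Graphite samples, and 5.20 in fullerene 24, against 5.38 to 5.40 in the other fullerene samples. Fgb read 4.98 in Graphite 15, against 5.33 to 5.40 in the other Graphite samples. The dimmer spot of Cp read 8.29 in fullerene 22, against 8.57 to 8.61 in the other fullerene samples. Apart from the reading in Graphite 13, the Fga and Fgb values lie under the percentile that marks background.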

How the results depend on the processing

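Counts are of members called at an adjusted p under 0.05 (limma). Apart from the fit of BayTubes and Ctrl alone, the share of all genes called in each setting is not given here. A shift in these counts therefore cannot be read as particular to the members. The replicate numbers run from 1 to 24 and none is shared between groups, so the only pairs are the samples of an array, and the fits with array stand for them. Against Ctrl, the fit without the array block called 1 gene after tCNT, 1 after BayTubes, 0 after Graphite and 0 after fullerene. With array as a fixed term it called 4 after rCNT, 0 after tCNT, 0 after Graphite and 0 after fullerene, and 1 between rCNT and tCNT, 2 against SES and 2 against BayTubes. With slide as a term the count was 1 after tCNT and 0 after fullerene. Within slide 1 it was 0 after tCNT, BayTubes, Graphite and fullerene, and within slide 2 it was 3 after Graphite. Without the filter, and for the mean of all spots and the second spot, it was 1 after tCNT, and for both spot settings 0 after Graphite and fullerene. Kng1, the gene called there, has no second spot above the filter, so its call under that setting could not be made. Tested against a 1.5-fold change it was 0 after tCNT, BayTubes, Graphite and fullerene, and for rCNT 2 against tCNT, 4 against SES, 2 against BayTubes and 5 against Graphite. In fits of the compared groups alone it was 8 after BayTubes and 0 after tCNT, Graphite and fullerene. Without the dye term, with the stricter filter, with either normalization and with another variance prior no count moved by over 1.5 times. The last 2 settings were chosen after seeing the data: without the array of rCNT 4 and Graphite 16 it was 1 after tCNT, and without Graphite 13 it was 6 after BayTubes and 0 after Graphite. The cause of these shifts was not tested.

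With 1 sample of a compared group left out, the count ran from 7 to 8 after rCNT and from 0 to 3 after BayTubes. It ran from 0 to 1 after tCNT, after Graphite and after fullerene. For rCNT it ran from 4 to 6 against tCNT, 7 to 8 against SES and 5 to 7 against BayTubes, and it stayed at 8 against Graphite, against fullerene and in the F test, and at 0 after SES. On its second spot Cp after rCNT differed by -0.070 from Ctrl, -0.20 from tCNT, -0.18 from SES, -0.024 from BayTubes, -0.28 from Graphite and -0.12 from fullerene. None of these differences passed (adjusted p = 0.12 to 0.942, limma). Within slide 1 and slide 2, all 52 and all 44 called differences that could be computed kept their direction, but rCNT has 1 sample on each slide and other groups supply the spread, so these are values of the same samples and no further test. Of planned refits of single differences 1702 stayed called or stayed uncalled, 151 lost the call and 10 gained one. In 6, those of Cp, a called difference changed sign. Some uncalled differences among the 1702 changed sign too. With array as a fixed term, Hp between rCNT and tCNT was -0.04, against 0.18 in the main fit.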
